A study of Mus musculus with 6 samples.

Results

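The genes described here are interferon-inducible genes, read in pancreatic islets of mice that lack Tead1 in beta cells and of control mice. They are 34 genes that interferon is known to switch on, listed by name with earlier results of these data known. Of these, 32 had a probe set (the short probes that read 1 transcript) that carries exactly 1 gene symbol. Isg15 and Ifi44 had no such probe set and were not analysed here. The 32 genes stand among 18193 genes read on the same arrays, and each gene was read by its brightest probe set. Islets came from 12-week-old male C57Bl6 mice and were freed with collagenase, density-purified and picked by hand. Of the 6 arrays, 3 carried islet RNA of Flox mice, the controls with floxed Tead1, and 3 that of mice with a beta cell specific Tead1 knockout (Tead1KO). Which Cre line removed Tead1, and whether Flox mice carried it, is absent from the labels, so an effect of a Cre transgene cannot be told apart from that of Tead1. Islet cells other than beta cells keep the gene. The comparison asks whether Ifitm1, which rose steeply in Tead1KO islets, rose alone or with its family and with other interferon-inducible genes. That rise is the starting point of the comparison and not an independent finding of it.

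Interferons are secreted proteins that cells release on meeting a virus or an inflammatory signal. They bind receptors coupled to Janus kinases, which activate transcription factors, Stat2 and Irf9 among them, that bind interferon-stimulated response elements in the promoters of many genes at once. Interferon-gamma acts at gamma-activated sites and through Irf1. Islet cells respond to interferon with antiviral effectors and with more class I antigen presentation, a response well known from autoimmune diabetes. The Ifitm proteins are small membrane proteins that hinder the entry of enveloped viruses. The genes Ifitm1, Ifitm2, Ifitm3, Ifitm5 and Ifitm6 lie side by side on mouse chromosome 7.

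The promoters of the 3 family members and of Ifit3, a strongly interferon-responsive gene, are shown so that letter matches to an interferon-stimulated element can be compared. Each sequence is the 250 bases before the gene's start, 5' to 3' on the gene's strand, from RefSeq in build GRCm38.p6. Capitals mark matches to the interferon-stimulated element (GAAA, then 2 bases of any kind, then GAAA) on either strand, and all other bases are in lower case.
Ifitm1, chr7:140967826-140968075, plus strand: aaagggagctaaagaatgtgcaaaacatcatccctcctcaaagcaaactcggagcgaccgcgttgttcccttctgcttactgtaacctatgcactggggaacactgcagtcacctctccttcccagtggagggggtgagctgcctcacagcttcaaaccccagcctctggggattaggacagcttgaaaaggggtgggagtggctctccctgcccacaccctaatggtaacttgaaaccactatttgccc
Ifitm2, chr7:140955962-140956211, minus strand: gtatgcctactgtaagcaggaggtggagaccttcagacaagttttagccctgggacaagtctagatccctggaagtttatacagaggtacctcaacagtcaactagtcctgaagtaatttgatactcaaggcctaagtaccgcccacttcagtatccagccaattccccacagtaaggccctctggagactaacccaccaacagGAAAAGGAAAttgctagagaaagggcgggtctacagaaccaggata
Ifitm3, chr7:141010745-141010994, minus strand: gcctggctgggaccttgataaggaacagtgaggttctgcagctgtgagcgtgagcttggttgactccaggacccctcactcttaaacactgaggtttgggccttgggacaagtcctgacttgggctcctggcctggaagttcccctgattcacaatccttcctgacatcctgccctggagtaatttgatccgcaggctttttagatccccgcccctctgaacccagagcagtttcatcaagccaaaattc
Ifit3, chr19:34583279-34583528, plus strand: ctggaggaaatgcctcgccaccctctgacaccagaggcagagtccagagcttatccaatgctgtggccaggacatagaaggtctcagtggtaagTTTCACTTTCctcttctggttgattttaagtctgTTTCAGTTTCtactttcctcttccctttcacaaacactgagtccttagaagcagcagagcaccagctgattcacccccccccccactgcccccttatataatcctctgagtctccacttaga

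The Ifitm2 window holds 1 match, 46 bases before the start, and the Ifit3 window holds 2, at 156 and 122 bases before it. The windows of Ifitm1 and Ifitm3 hold none, nor do these 4 windows hold the gamma-activated letters TTCNNNGAA or the TEAD letters GGAATG on either strand. Of the 32 genes, 26 had a promoter window, and 11 of them (42.3%) held the interferon-stimulated letters, against 3.46% of the 27025 genes in the promoter table. The gamma-activated letters stood in 5 of the 26 (19.2%, against 8.13% of all) and the TEAD letters in 2, Bst2 and Gbp2 (7.69%, against 14.4% of all). In Bst2 the TEAD match overlaps the gamma-activated match, which overlaps an interferon-stimulated match. A match is a stretch of letters and not a measured site, and a window without one says nothing of elements farther away.

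Signals are given on the log2 scale, differences are Tead1KO minus Flox on that scale, and a gene was called changed at a limma adjusted p under 0.05 over all 18193 genes. The arrays were alike in median signal (5.17 to 5.37), but Tead1KO replicate 3 stood apart. Its interquartile range of all probe sets was 2.65 against 2.99 to 3.32 on the other arrays, its spiked hybridization controls read 13.2 against 10.6 to 12.1, and its mean correlation with the other arrays was 0.969 against 0.984 to 0.986. The values that changed most without it are given beside the results. Islet hormone genes read near the top of the scale on all 6 arrays (Ins2 15.67 to 15.71, Gcg 14.69 to 14.81). Acinar genes were bright and uneven, with Cpa1, a digestive enzyme gene, between 11.92 and 14.33 in Flox and between 12.04 and 14.09 in Tead1KO. Tead1 itself read 7.22, 6.99 and 7.40 in Flox and 6.72, 7.49 and 5.95 in Tead1KO (limma adjusted p = 0.774). Whether its probes lie inside the deleted stretch is not known here, so it does not check the labels. The groups overlapped, and Tead1KO replicate 2 lay above every Flox array. A range of 2.87 to 4.70, read by 27 probe sets for Bacillus subtilis genes, served as the background. No label says which mouse or pool of mice each array came from, so p-values reflect the scatter of these 3 arrays per group, and part of that scatter may be technical. A gene is called within background where the mean of its group lies in that range.

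Ifitm1 was the 1 gene of the 32 that passed the test. It read 7.31, 7.31 and 6.91 in Flox replicates 1 to 3 and 10.36, 10.61 and 9.87 in Tead1KO replicates 1 to 3. All 3 Tead1KO arrays lay far above all 3 Flox arrays, and all 6 lay well above background. The mean rose from 7.18 ± 0.23 to 10.28 ± 0.38 (SD, n = 3 each), a log2 difference of 3.11 (SE 0.23, 95% confidence interval 2.58 to 3.63, limma adjusted p = 0.00183). This is 8.60-fold, with an interval of 5.98-fold to 12.4-fold, and it was the change of rank 5 counted from the largest rise among all genes. The exact permutation test of this single gene gave p = 0.1, the smallest that 3 arrays against 3 can give. Without Tead1KO replicate 3 the difference was 3.31 (limma adjusted p = 0.000616). Ifitm1 was read by 1 probe set, so no other probe set on the array checks the value. In whole islets, more cells that make Ifitm1 and more Ifitm1 RNA per cell cannot be told apart.

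Its relatives Ifitm2 and Ifitm3 did not pass the test. Ifitm2, also an interferon-inducible restriction factor, read 7.96, 8.16 and 7.95 in Flox and 8.12, 8.54 and 7.34 in Tead1KO. Ifitm3, the member best known for blocking influenza virus, read 7.76, 8.34 and 8.44 in Flox and 7.84, 8.99 and 7.68 in Tead1KO. In both genes Tead1KO replicate 2 was the highest and Tead1KO replicate 3 the lowest of the 6 arrays, and the Flox arrays lay between them. The difference was -0.03 for Ifitm2 (SE 0.29, interval -0.69 to 0.64, limma adjusted p = 0.983). It was -0.02 for Ifitm3 (SE 0.36, interval -0.84 to 0.81, limma adjusted p = 0.990). Both values are averages over Tead1KO arrays that lie far apart, and their sign depends on which arrays enter. Without Tead1KO replicate 3 the differences were 0.30 for Ifitm2 and 0.23 for Ifitm3, without Tead1KO replicate 2 they were -0.30 and -0.42, and with each array's hybridization control signal as covariate they were 0.33 and 0.50. None of these passed limma's test. The change of Ifitm1 exceeded that of Ifitm2 by 3.13 and that of Ifitm3 by 3.12. Per array, Ifitm1 relative to Ifitm2 lay 3.09, 2.92 and 3.38 above the Flox mean in Tead1KO replicates 1 to 3, while the Flox arrays spread from -0.19 to 0.19. Relative to Ifitm3 the Tead1KO arrays lay 3.53, 2.63 and 3.20 above it, and the Flox arrays spread from -0.53 to 0.56. The groups did not overlap in either contrast, but the rise of Ifitm1 on these same arrays was the starting point of the comparison. The contrasts therefore describe the gap and are no independent test of it. Each gave an exact two-sided permutation p = 0.1, the smallest possible with 3 arrays against 3, and p = 0.1 after adjustment over the 2 contrasts.

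**Figure D1:**
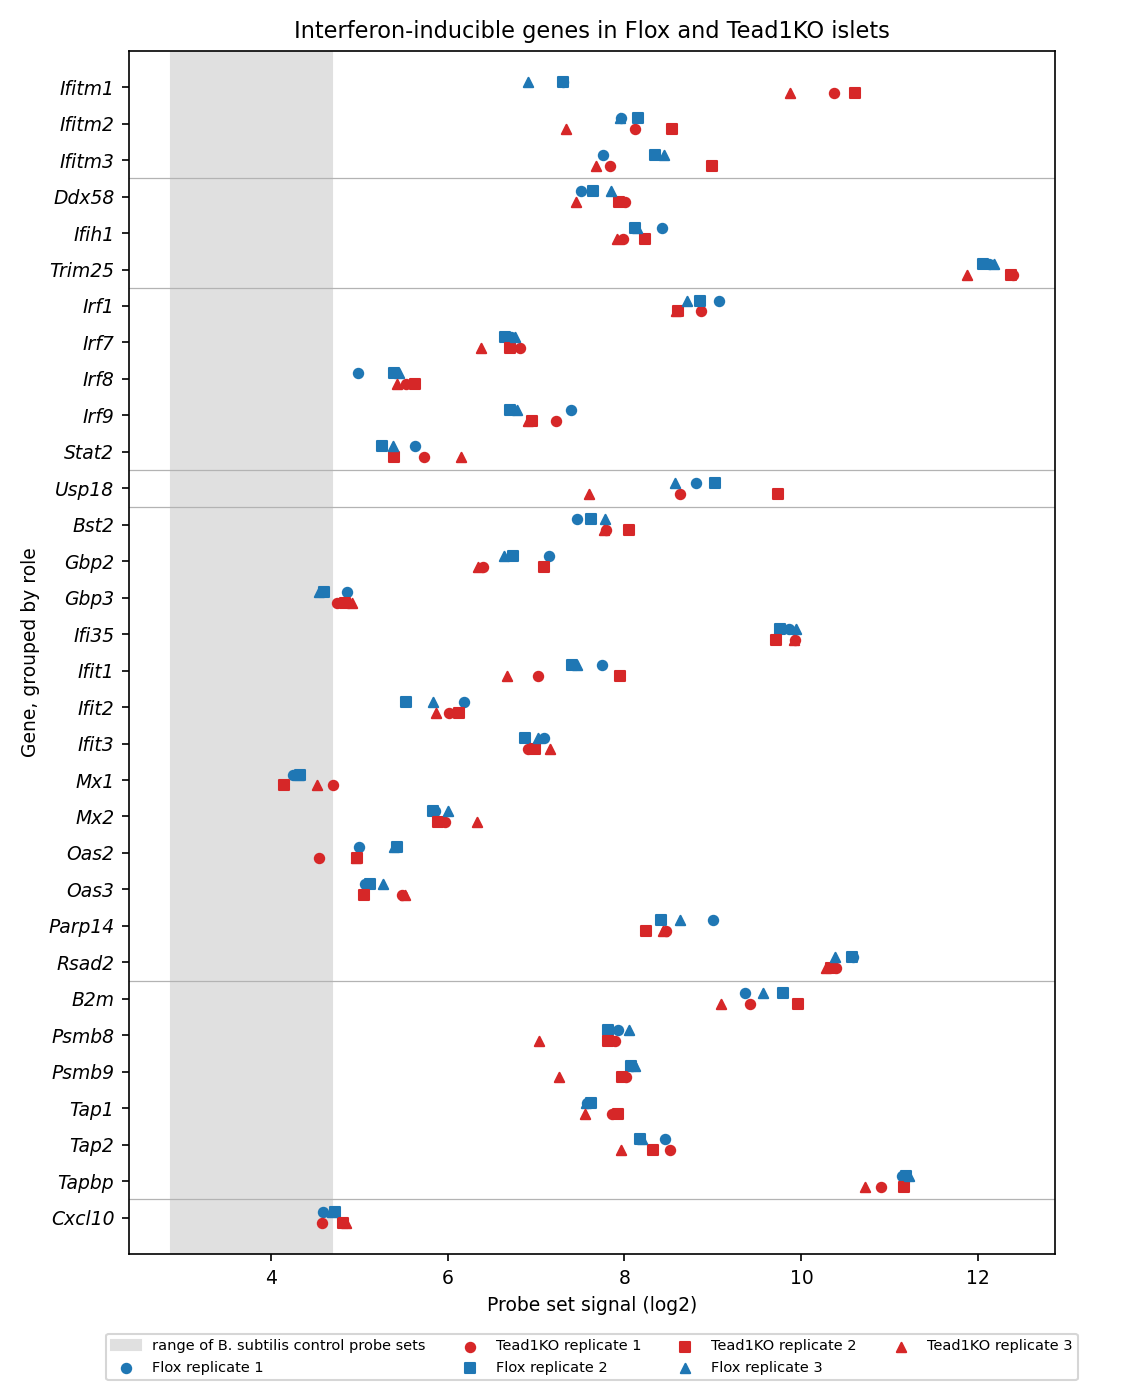
Probe set signal (log2, x axis) of the 32 genes, grouped by role between grey lines; each point is 1 array (blue Flox, red Tead1KO, symbol by replicate) and grey shading spans the Bacillus subtilis control probe sets, 2.87 to 4.70. The groups lie far apart for Ifitm1, at 6.91 to 7.31 in Flox and 9.87 to 10.61 in Tead1KO, and overlap or nearly touch for the other genes.

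Of the 32 genes, 1 rose (Ifitm1) and 0 fell by limma's adjusted p, where 0.335% of all genes rose, 0.181% fell and 0.517% did either. At an unadjusted p under 0.05 there were 2 of 32, Ifitm1 higher and Oas2 lower, against 7.41% of all genes (3.08% higher and 4.33% lower). The groups did not overlap for 3 of the 32, Ifitm1 above and Oas2 and Psmb9 below, against 13.1% of all genes (5.8% above and 7.27% below), so the share is no higher than the background. The median difference of the 32 was -0.0036 and that of all genes -0.0074, with 16 of the 32 above 0, against 48.9% of all genes, and 16 below. The other 31 differences lay between -0.44 and 0.33. For all 31 the upper end of the unadjusted 95% interval lay under a log2 difference of 1, the highest being 0.93 for Usp18. A rise in signal of 1 or more, seen in 0.731% of all genes, therefore lay outside the interval of each of the 31, and for 30 of them the interval held 0. Mx1 lay within background in both groups, and Gbp3 and Cxcl10 did in Flox. There the signal need not follow the RNA, so their intervals do not bound a change in RNA. These intervals use all 6 arrays. Without Tead1KO replicate 3 the median of the 32 was 0.12, 20 of the 32 lay above 0, and Ifitm1 was again the 1 gene called. The sign turned for 8 of the 32 without that array, among them Ifitm2, Ifitm3, Usp18 (0.38), B2m (0.12), Tap2 (0.14) and Irf7 (0.05), and the remaining sign changes, of Ifit3 and Ifi35, were to -0.05 and -0.03. Ddx58 moved to 0.31, Trim25 to 0.26, Tap1 to 0.31, Stat2 to 0.14 and Ifit1 to -0.06.

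**Figure D2:**
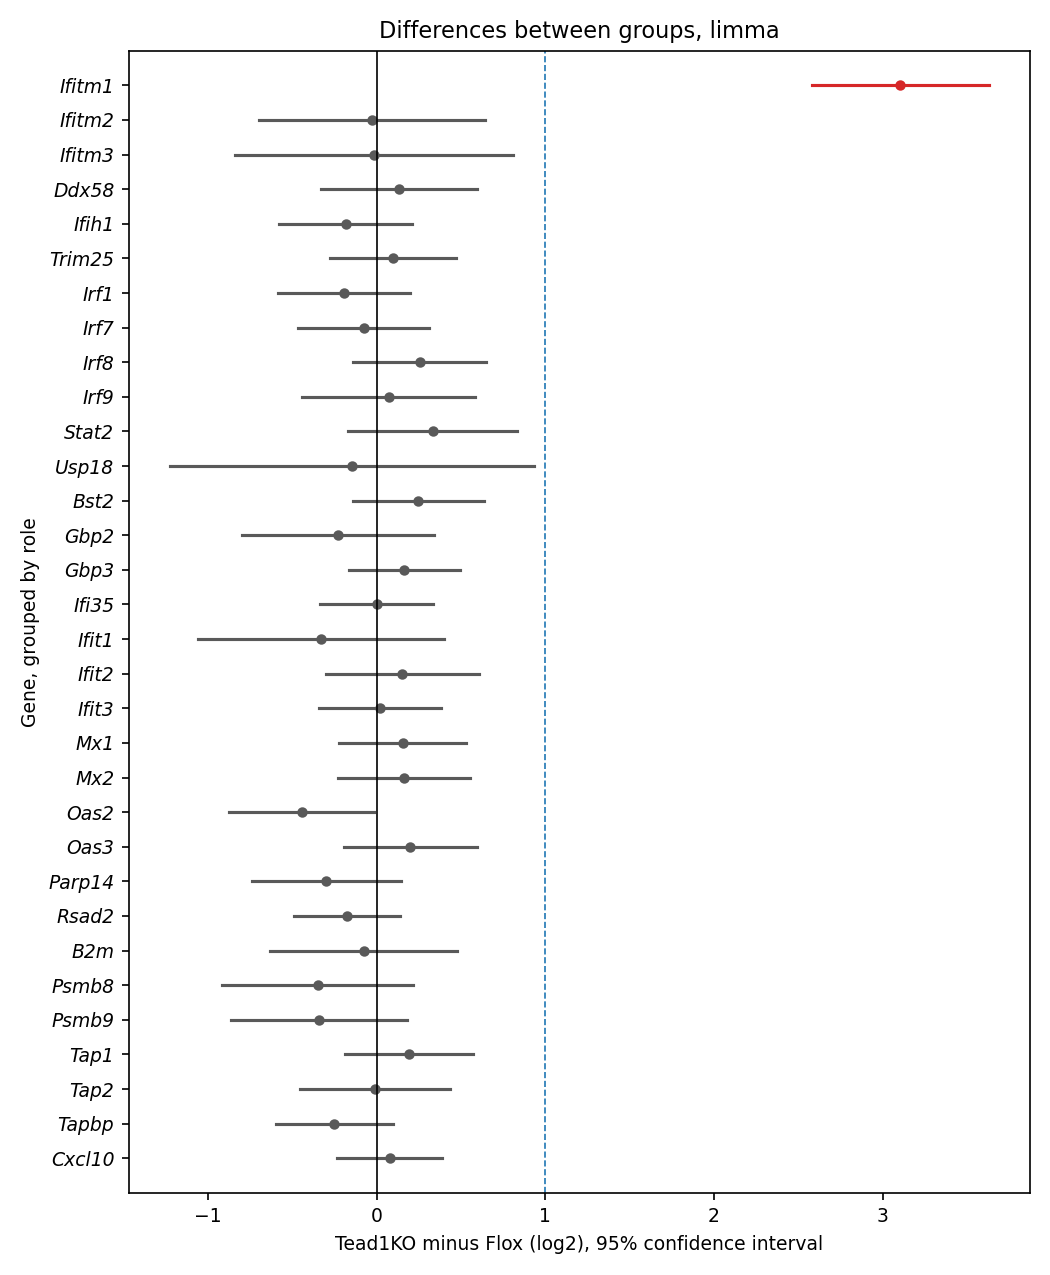
Tead1KO minus Flox (log2, x axis) for the 32 genes, grouped by role; points are limma estimates, bars their unadjusted 95% confidence intervals, the dashed line marks a difference of 1, and red marks the gene that passed the test. Ifitm1 lies at 3.11, and every other interval ends below the dashed line.

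The sensors that detect viral RNA upstream of interferon did not pass the test. Ddx58, also called RIG-I, reads short viral RNA in the cytosol, and its signal was 7.51, 7.64 and 7.85 in Flox and 8.003, 7.94 and 7.45 in Tead1KO (difference 0.13, interval -0.33 to 0.60). Ifih1, also called MDA5, reads long double-stranded RNA and is a type 1 diabetes risk gene in people; it read 8.42, 8.12 and 8.15 in Flox and 7.98, 8.23 and 7.92 in Tead1KO (difference -0.18). The groups overlapped in both sensors, and the differences point opposite ways. Trim25, the ubiquitin ligase that helps activate RIG-I, read 12.12, 12.05 and 12.17 in Flox and 12.39, 12.37 and 11.87 in Tead1KO (difference 0.10, interval -0.28 to 0.47). Tead1KO replicates 1 and 2 lay above the Flox arrays for Trim25 and replicate 3 lay below them.

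The transcription factors of the pathway, which carry the signal to the promoters, likewise gave 0 calls among 5 by limma, and 0 at an unadjusted p under 0.05. Stat2 and Irf9 form the complex that binds interferon-stimulated elements. Stat2 read 5.64, 5.26 and 5.39 in Flox and 5.73, 5.40 and 6.15 in Tead1KO (difference 0.33, interval -0.17 to 0.83, limma adjusted p = 0.772). Irf9 read 7.40, 6.70 and 6.78 in Flox and 7.23, 6.96 and 6.91 in Tead1KO (difference 0.07). The groups overlapped for both genes, with the Tead1KO arrays of Irf9 inside the Flox range and Tead1KO replicate 3 the highest array for Stat2. Irf7, the amplifier of the type I interferon response and itself strongly induced by it, read 6.72, 6.65 and 6.76 in Flox and 6.82, 6.70 and 6.38 in Tead1KO (difference -0.08, interval -0.47 to 0.31). Irf1, a mediator of interferon-gamma responses, read 9.07, 8.85 and 8.71 in Flox and 8.86, 8.61 and 8.58 in Tead1KO (difference -0.19). Irf8, a factor of macrophages and dendritic cells, was dim, at 4.99, 5.40 and 5.45 in Flox and 5.53, 5.64 and 5.43 in Tead1KO (difference 0.26).

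Among the antiviral effectors, 13 were measured and 0 passed (limma, 1 at an unadjusted p under 0.05), with a median difference of 0.02, 8 above 0 and 5 below. The Ifit proteins bind foreign RNA and block its translation. Ifit1 read 7.75, 7.41 and 7.47 in Flox and 7.02, 7.95 and 6.67 in Tead1KO (difference -0.33, interval -1.06 to 0.40). Ifit3 read 7.09, 6.88 and 7.02 in Flox and 6.91, 6.99 and 7.15 in Tead1KO, a difference of 0.02 with a narrow interval of -0.34 to 0.38. Ifit3, whose promoter holds the 2 interferon-stimulated stretches printed above, was nearly level between the groups, while Ifit1 varied widely within Tead1KO. Ifit2 read between 5.53 and 6.19 in Flox and between 5.87 and 6.12 in Tead1KO (difference 0.15). Oas2, which makes the messenger that activates RNase L, read 5.001, 5.43 and 5.39 in Flox and 4.55, 4.97 and 4.97 in Tead1KO. All 3 Tead1KO arrays lay below the Flox arrays for Oas2, close to background, and the difference of -0.44 did not pass (SE 0.19, unadjusted p = 0.044, limma adjusted p = 0.658). Its paralogue Oas3 differed the other way, by 0.20 (Flox 5.07 to 5.27, Tead1KO 5.06 to 5.52).

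Rsad2, or viperin, an enzyme that makes a chain-terminating nucleotide, read 10.58, 10.57 and 10.38 in Flox and 10.39, 10.34 and 10.27 in Tead1KO (difference -0.18, interval -0.49 to 0.14). Bst2, or tetherin, which holds budding virus at the cell surface, read 7.46, 7.62 and 7.78 in Flox and 7.79, 8.05 and 7.77 in Tead1KO (difference 0.25, interval -0.14 to 0.64). The groups overlapped narrowly in both genes. The dynamin-like GTPases Mx1 and Mx2 differed by 0.16 each, with Mx1 within background in both groups (4.25 to 4.33 in Flox, 4.15 to 4.70 in Tead1KO). Gbp2 and Gbp3, GTPases that attack pathogen vacuoles, differed by -0.23 and 0.16, with Gbp3 just at the edge of background. Parp14, an ADP-ribosyltransferase, read 8.24 to 8.47 in Tead1KO against 8.42 to 9.002 in Flox (difference -0.30). Ifi35 differed by 0.00. The probe sets read for Ifi35 and Gbp2 (suffix _x_at) and for Trim25 (suffix _s_at) can match several transcripts, which leaves these values uncertain.

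Usp18, the protease that removes Isg15 from proteins and dampens interferon receptor signalling, showed the widest spread. It read 8.81, 9.03 and 8.57 in Flox and 8.63, 9.74 and 7.60 in Tead1KO (difference -0.15, SE 0.47, interval -1.23 to 0.93). Tead1KO replicates 2 and 3 lay above and below all Flox arrays. Cxcl10, a chemokine that draws T cells into inflamed islets, lay at the edge of background, at 4.59, 4.72 and 4.70 in Flox and 4.58, 4.82 and 4.85 in Tead1KO. At this level a fall could not be measured, and the interval of the Cxcl10 difference was -0.23 to 0.39.

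The class I presentation genes, which cut, transport and load peptides, gave 0 calls among 6 (limma, 0 at an unadjusted p under 0.05) with 5 of 6 differences below 0 and a median of -0.16. Psmb9, an immunoproteasome subunit, read 8.08, 8.07 and 8.12 in Flox and 8.02, 7.97 and 7.26 in Tead1KO (difference -0.34, limma adjusted p = 0.772). Psmb8, its partner subunit, read 7.92, 7.82 and 8.05 in Flox and 7.89, 7.82 and 7.03 in Tead1KO (difference -0.35). Tead1KO replicates 1 and 2 lay just below the Flox arrays for Psmb9. For Psmb8, replicate 1 lay inside the Flox range and replicate 2 at its lower end. In both subunits replicate 3 lay far below, and without it the differences were -0.07 for Psmb8 and -0.09 for Psmb9. The peptide transporter genes Tap1 and Tap2 differed by 0.19 and -0.01, and Tapbp, which couples the transporter to class I molecules, by -0.25 (interval -0.60 to 0.10). B2m, the light chain of class I molecules, read 9.36, 9.79 and 9.57 in Flox and 9.42, 9.97 and 9.09 in Tead1KO (difference -0.08).

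Further probe sets gave no other call. Of the 32 genes, 12 had 18 further, dimmer probe sets, 0 of which passed limma's test over all probe sets with a symbol and 0 of which had an unadjusted p under 0.05. The 13 that lay above background in at least 1 group differed by between -1.07 and 0.34. The lowest belongs to an Ifi35 probe set with an _s_at suffix, which can match several transcripts. It read 8.19, 8.86 and 8.55 in Flox and 7.44, 9.27 and 5.69 in Tead1KO, so that its low mean rests on Tead1KO replicate 3.

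**Figure D3:**
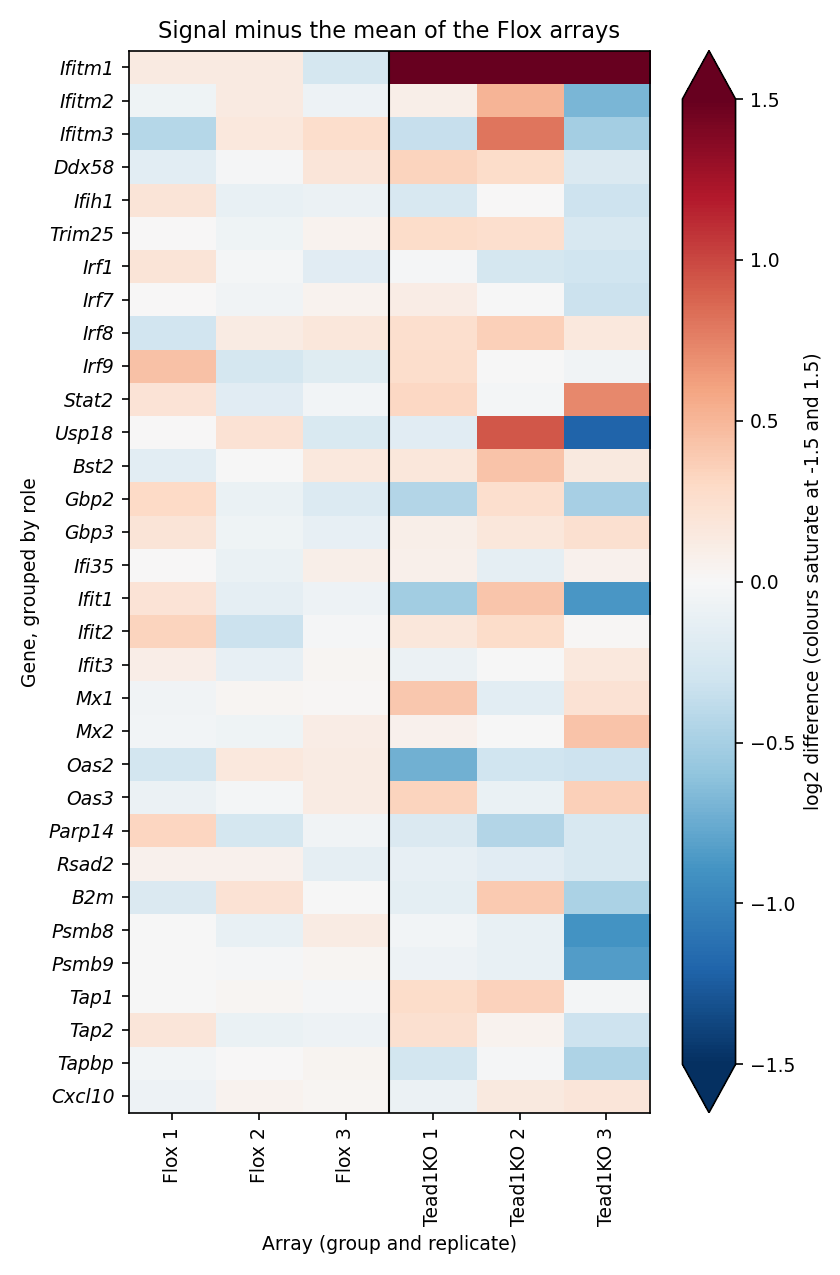
Each row is 1 of the 32 genes, each column 1 array, and colour gives the signal minus the mean of the 3 Flox arrays (log2, colours saturate at -1.5 and 1.5). Ifitm1 is dark red in all 3 Tead1KO arrays, while of the other 31 rows 4 are paler red and 7 blue in all 3 and 20 hold both colours.

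For 26 of the 31 genes other than Ifitm1 the range within Tead1KO was wider than the difference between the group means, and for Oas2, Parp14, Irf8, Rsad2 and Gbp3 it was not. The share of all genes for which this holds was not counted. The median range within Tead1KO was 0.44 for the 32 genes and 0.49 for all genes, so such ranges are not particular to the 32. Leaving out Ifitm1, the mean of the 31 genes relative to Flox was -0.00, 0.12 and -0.20 in Tead1KO replicates 1 to 3 and 0.03, -0.03 and 0.00 in Flox replicates 1 to 3. Tead1KO replicate 3 was the lowest of its group for 22 of the 32 genes, against 47.2% of all genes, and Tead1KO replicate 2 was the highest for 14, against 40.4% of all genes. The largest gaps between replicates 2 and 3 were 2.14 for Usp18, 1.31 for Ifitm3, 1.29 for Ifit1 and 1.20 for Ifitm2, and the gap was 0.74 for Ifitm1. The narrow signal range of Tead1KO replicate 3 moves with these gaps, as do several of the summed cell type markers given below. The macrophage, stromal, beta cell and other endocrine sums were each highest in replicate 2 and lowest in replicate 3 of Tead1KO. The lymphocyte, endothelial and acinar sums had another order. The part of the narrow range and of these cell types in the gaps was not tested. A wider range within Tead1KO than within Flox was seen in 23 of the 32 genes and in 76.2% of all genes.

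Ifitm1 also stood apart from its neighbours on the chromosome. In gene order its closest neighbours are Ifitm2 on one side and Ifitm3 on the other, followed by Ifitm5 and Ifitm6. Of the 12 protein-coding genes on either side, 22 were measured, and 0 were called higher or lower (limma, 1 at an unadjusted p under 0.05), with a median difference of 0.02. The differences of these neighbours lay between -0.43 for Sirt3, a mitochondrial deacetylase, and 0.44 for Odf3, a sperm tail gene near background (limma adjusted p = 0.484). Odf3 was the 1 gene of these 22 whose Tead1KO arrays all lay above the Flox arrays, against 5.8% of all genes. Psmd13, a proteasome subunit, read 10.28, 9.72 and 9.79 in Flox and 10.33, 9.60 and 10.78 in Tead1KO (difference 0.31). Ifitm5 and Ifitm6 lay within background in both groups, as did Ifitm7, and Ifitm10 differed by -0.01 (5.14 to 5.35 in Flox, 5.06 to 5.29 in Tead1KO).

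**Figure D4:**
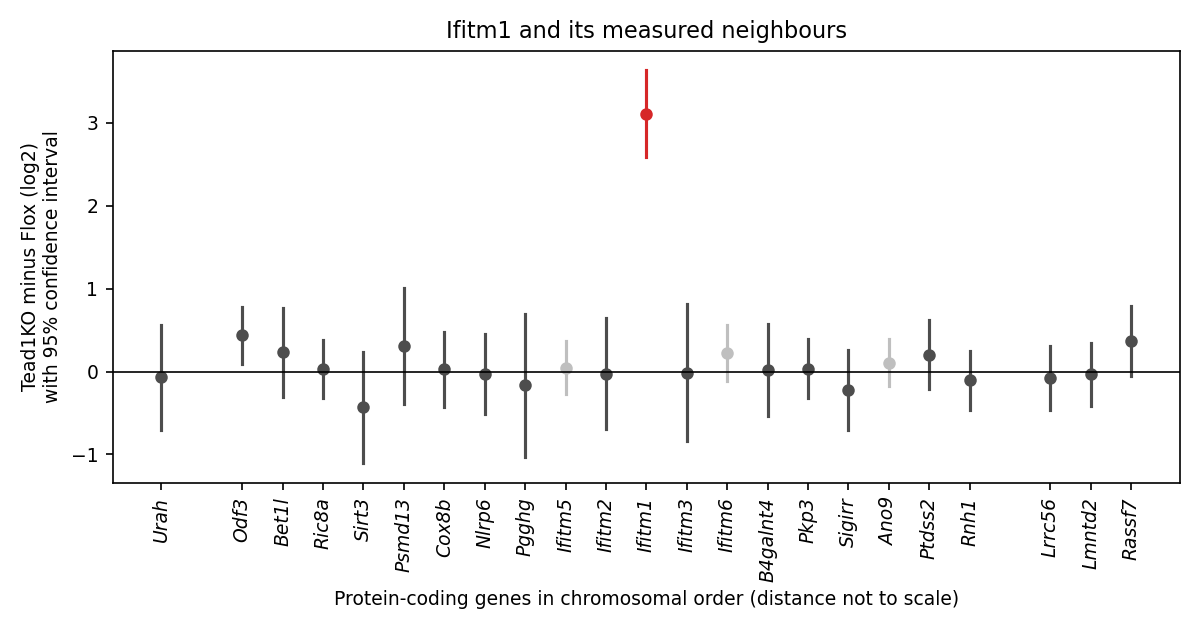
Tead1KO minus Flox (log2, y axis) with unadjusted 95% confidence intervals for Ifitm1 (red) and its measured neighbours in gene order (x axis, distance not to scale, gaps where no gene was measured); light grey marks genes within background in both groups. Ifitm1 lies at 3.11 and its neighbours between -0.43 and 0.44.

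Other genes of the pathway, from 6 lists, gave 0 calls among 115 measured genes (limma; 9 had an unadjusted p under 0.05, 3 higher and 6 lower, against 7.41% of all genes), and their median difference was -0.05. Among 10 interferon genes 7 lay within background in both groups, and 0 passed (1 at an unadjusted p under 0.05). Ifng, the gene of interferon-gamma, read 3.48, 3.49 and 3.63 in Flox and 3.97, 3.70 and 3.84 in Tead1KO, all within background. Ifnb1, the gene of interferon-beta, read 4.14, 4.31 and 4.22 in Flox and 3.99, 4.32 and 5.16 in Tead1KO, above background in Tead1KO replicate 3 alone. Ifna11 and Ifna5, interferon-alpha genes, differed by 0.39 and -0.13 within background. Values within background carry no order.

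The receptors, kinases and early factors counted 19 measured genes with a median of -0.12 and 0 calls by limma. At limma's unadjusted p under 0.05 there were 3, with 1 higher and 2 lower, against 7.41% of all genes. All Tead1KO arrays lay below all Flox arrays for 4 of the 19, against 7.27% of all genes. They lay above for 1, against 5.8% of all genes. Jak1, the kinase shared by the interferon receptors, read 9.90, 10.48 and 10.41 in Flox and 9.41, 9.66 and 8.97 in Tead1KO. Every Tead1KO array lay below every Flox array for Jak1, by a mean of -0.92 that did not pass (SE 0.23, unadjusted p = 0.0044, limma adjusted p = 0.244). Ptpn11, a phosphatase in cytokine signalling, differed by -0.49 (limma adjusted p = 0.303). Ifnlr1, the receptor chain for interferon-lambda, read 5.42, 5.43 and 5.74 in Flox and 6.37, 6.43 and 5.80 in Tead1KO (difference 0.67, limma adjusted p = 0.399), and it passed when the hybridization controls entered as a covariate. Ifnar1 and Ifnar2, the type I receptor chains, differed by -0.03 and -0.06, and Ifngr1 and Ifngr2, the interferon-gamma receptor chains, by 0.37 and -0.20.

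Of 18 sensors and adaptors 0 passed (limma, 2 at an unadjusted p under 0.05), led by Samhd1, which degrades nucleotides needed by viruses (0.43), Tlr3, a receptor for double-stranded RNA (-0.49), and the adaptor Myd88 (-0.39). Of 51 further interferon-inducible genes 0 passed (limma, 3 at an unadjusted p under 0.05, all lower), 18 lay above 0 and 33 below, and the median was -0.05. The smallest p-values among them belonged to Oas1a (-0.46), Trim34a (-0.47) and Isg20, an RNA exonuclease (-0.67), with limma adjusted p of 0.540, 0.574 and 0.594. Of 13 further antigen presentation genes 0 passed (limma, 0 at an unadjusted p under 0.05), with the peptide trimmer Erap1 at -0.47, Ciita, the switch of class II genes, at 0.32 but within background, and the class I heavy chain gene H2-K1 at -0.44. The wider lists thus held no gene with a rise near that of Ifitm1, the highest difference in them being 0.67. Relative to Flox, the mean of the 51 genes was -0.08, 0.02 and -0.19 in Tead1KO replicates 1 to 3. That of the 13 was -0.07, 0.22 and -0.46, so both were lowest in replicate 3. The means of the sensors and adaptors and of the interferon genes were highest there, at 0.02 and 0.28.

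**Figure D5:**
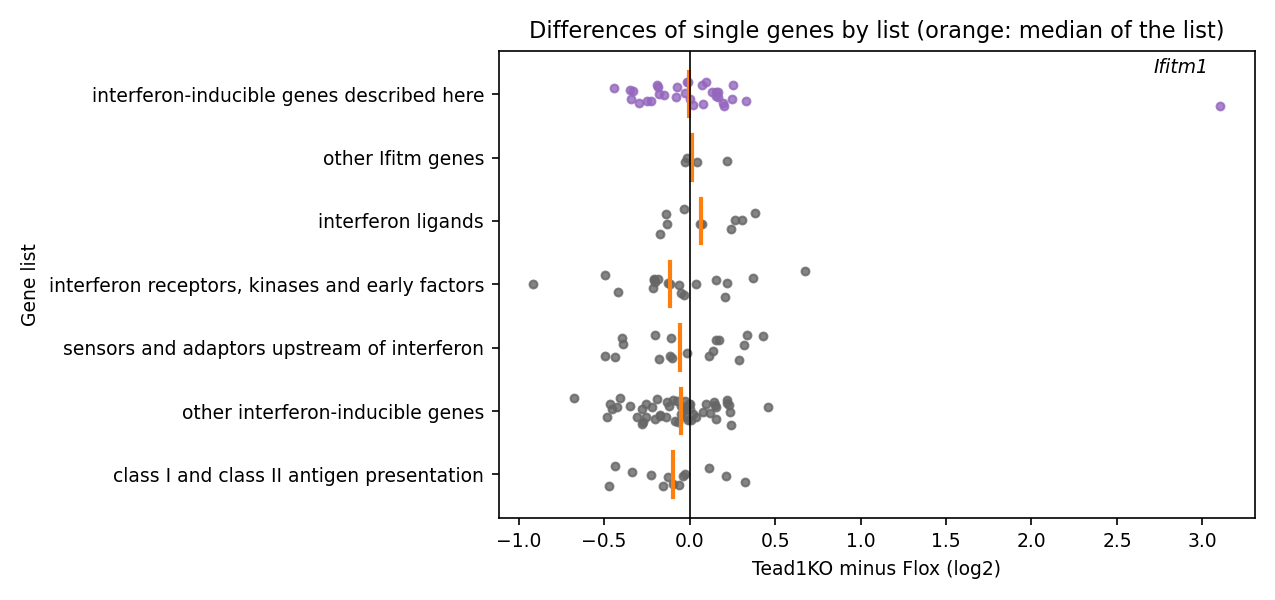
Tead1KO minus Flox (log2, x axis) for single genes of the 32 described here (purple) and of the 6 further pathway lists (grey); points are genes, spread vertically at random, and orange marks are list medians. Ifitm1 lies at 3.11, and the points of the 6 further lists lie between -0.92 and 0.67.

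Markers of cell types that carry interferon-inducible genes were read beside these values. Of 12 macrophage markers 0 passed (limma, 1 at an unadjusted p under 0.05), and their summed signal was 11.42 to 11.98 in Flox and 11.54 to 12.78 in Tead1KO. The sums of Tead1KO replicates 1 and 2 (12.33 and 12.78) lay above every Flox array, and the overlap rests on replicate 3. Such a sum is weighted towards bright genes, C1qa among them. The mean of the log2 signals relative to Flox was 0.12, 0.42 and -0.27 in Tead1KO replicates 1 to 3. In Flox replicates 1 to 3 it was -0.20, 0.11 and 0.09, so Tead1KO replicate 1 was level with the highest Flox array. The median difference of the 12 markers was 0.02, with 7 above 0 and 5 below. The marker at an unadjusted p under 0.05 was C1qa, a complement subunit of tissue macrophages, at 9.75, 10.55 and 10.50 in Flox and 11.52, 11.99 and 10.51 in Tead1KO (difference 1.08, limma adjusted p = 0.518). The other macrophage genes Adgre1 (0.15) and Csf1r (-0.25) moved by less. Of 11 lymphocyte and dendritic cell markers 0 passed (limma, 1 at an unadjusted p under 0.05), with a summed signal of 8.81 to 8.96 in Flox and 8.80 to 8.91 in Tead1KO and Cd3g within background. The marker at an unadjusted p under 0.05 was Cd79a, a chain of the B cell receptor, at 5.62, 5.62 and 5.89 in Flox and 4.9998, 4.81 and 4.78 in Tead1KO (difference -0.85, limma adjusted p = 0.0725).

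Of 10 endothelial markers 0 passed (limma, 0 at an unadjusted p under 0.05), with sums of 12.50 to 12.52 in Flox and 12.53 to 12.56 in Tead1KO. Of 10 stromal markers 0 passed by limma, with sums of 11.75 to 12.08 in Flox and 11.45 to 12.16 in Tead1KO. At limma's unadjusted p under 0.05 there were 4, with 2 higher and 2 lower, against 3.08% higher and 4.33% lower of all genes. Dcn, a fibroblast matrix gene, differed by 1.11, Col1a2 by 0.62, Acta2 by -0.99 and Rgs5 by -0.62. Acinar and duct sums were 14.80 to 16.77 in Flox and 14.97 to 16.69 in Tead1KO (0 of 8 passed by limma, 0 at an unadjusted p under 0.05). Beta cell sums were 16.77 to 16.81 in Flox and 16.59 to 16.76 in Tead1KO (0 of 6 by limma, 4 at an unadjusted p under 0.05, all lower, against 4.33% of all genes). These sums are carried by the hormone genes, and the median difference of the 6 markers was -0.74. Ucn3, a peptide of mature beta cells, differed by -0.95 (limma adjusted p = 0.056), the transcription factor gene Nkx6-1 by -0.95 (limma adjusted p = 0.0637), the glucose transporter gene Slc2a2 by -0.82 and Pdx1, another beta cell transcription factor gene, by -0.66. For these 4 of the 6 markers every Tead1KO array lay below every Flox array, which held for 7.27% of all genes. Other endocrine sums were 15.84 to 16.01 and 15.85 to 16.02 (0 of 5, 0 at an unadjusted p under 0.05). The sums did not overlap between groups for the endothelial and the beta cell markers. For the endothelial markers the gap was narrow, between 12.52 and 12.53, and the means of the log2 signals overlapped. Relative to Flox these means were -0.06, 0.05 and 0.02 in Flox replicates 1 to 3. In Tead1KO replicates 1 to 3 they were 0.03, 0.15 and -0.17. The part of any cell type in the rise of Ifitm1 was not tested.

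Genes with the interferon-stimulated letters in their promoter window did not stand apart by their values. The 11 such genes had a median difference of 0.02, between -0.33 and 0.33, with 6 above 0. The 15 genes with a window but without the letters had a median of 0.0021, with 8 above 0, and Ifitm1 was 1 of them. Without Ifitm1 the remaining 14 lay between -0.35 and 0.26.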

How the data were processed

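Per the submitters' processing notes, the authors used Affymetrix Expression Console. Its version and its background, normalization and summary methods are not stated there. The deposited signals were taken as log2 from their range (2.75 to 15.7). Of 45101 probe sets, 64 controls were left out. Of the rest, 34945 carried 1 gene symbol in the platform annotation, 932 several and 9160 none here. The brightest probe set per gene gave 18193 genes, with no filter on dim signals. Tead1KO and Flox (3 arrays each) were compared with limma version 3.58.1 (R 4.3.3, lmFit, eBayes with trend=TRUE), with Benjamini-Hochberg adjustment over all genes and a threshold of 0.05. The exact permutation test was used for single values. The number of arrays limits the precision. The procedure was checked on simulated data. Summed marker signals are log2 of the sum of linear signals. Genes named are all measured members, of each pathway list those that passed and up to 3 more of smallest unadjusted p, and for markers the first listed; receptor chains, Ifnb1, neighbours and other markers were named after their values were seen. Members and lists were chosen with earlier results of these data known, and the chromosomal neighbours were added after the data were examined. The alternatives tried were other normalizations, filters, probe set choices, variance priors, covariates and thresholds, and each array left out. Promoter windows were matched by gene identifier, for 26 of 32 genes.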

Additional observations from a re-analysis of the deposited data

How the results depend on the processing

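The call of Ifitm1 and the absence of any other call among the 32 genes held under all 16 alternatives, with 1 gene higher and 0 lower in each. The Ifitm1 difference lay between 2.94 and 3.31, both from leaving out 1 array, with limma adjusted p between 0.000129 (hybridization controls as a covariate) and 0.0393 (without Tead1KO replicate 1). Its excess over Ifitm2 lay between 2.94 and 3.24 and over Ifitm3 between 2.77 and 3.40 in 13 alternatives. The median of the 32 genes lay between -0.031 and 0.12 when single arrays were left out, the latter without Tead1KO replicate 3. With the hybridization controls as a covariate, 1 of the 115 pathway genes passed, Ifnlr1, and the other 15 alternatives gave 0. The cause was not tested. Over all genes the count of calls was 94, with 152 after quantile normalization, 58 after median centring, 242 with the covariate and 12 to 303 with single arrays left out. Deviations of same-numbered arrays correlated at 0.056, 0.303 and -0.175. With 3 arrays per group these correlations cannot decide whether replicate numbers pair the arrays. Hybridization control signals were close between Flox and Tead1KO in replicate 1 (11.89 and 12.09) and replicate 2 (10.96 and 10.87). In replicate 3 they lay far apart (10.6 and 13.2). Whether same-numbered arrays shared a batch was not tested. With the replicate block, the Ifitm1 difference was 3.11 (limma adjusted p = 0.000865), 1 gene was higher and 0 lower, the median of the 32 was -0.0036, 0 pathway genes passed, and 97 genes were called in all.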
